A study of Mus musculus with 76 samples.

Results

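The 8 genes described here belong to the Sonic hedgehog pathway and were followed through the embryonic mouse diencephalon, the part of the forebrain that gives rise to the thalamus and hypothalamus. They were chosen by name, as the ligand Shh, the receptors Ptch1 and Hhip, the transducer Smo, the regulator Sufu and the transcription factors Gli1, Gli2 and Gli3, and they are 8 of the 56923 genes with a count. RNA was sequenced from 16 samples, 4 for each genotype and embryonic stage (E11.5 and E17.5, in days of gestation). Chromatin immunoprecipitation for H3K27ac, H3K4me3 and H3K27me3 gave 2 peak lists for each genotype at the early stage and 3 at the late stage, and CTCF gave 3 for each genotype at the late stage alone. All samples were of the C57BL/6J strain and each was a pool from a single litter, of 6 embryos early or 3 late. Wild type samples carried both mouse copies of the enhancer locus hs754 on chromosome 13. Humanized samples were homozygous for a single edited line in which the human hs754 sequence replaces the mouse one, and the line had been backcrossed to C57BL/6J. No other allele or treatment was given. The Ptch1 and Gli3 genes also lie on chromosome 13, both on the side of hs754 where the humanized genome keeps its mouse coordinates, and the remaining 6 lie on other chromosomes.

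In hedgehog signaling, a secreted lipid-modified ligand binds Ptch1, which otherwise holds Smo inactive. Active Smo accumulates in the primary cilium and releases the Gli proteins from Sufu, so that Gli2 and Gli3 act less as repressors and more as activators. Ptch1, Hhip and Gli1 are themselves classic targets of the pathway, Ptch1 and Hhip limiting the signal and Gli1 adding to it. In the early diencephalon Shh is made in ventral midline cells and in the boundary between prospective thalamic territories, and it patterns and expands neighboring progenitors. H3K27ac marks active promoters and enhancers, H3K4me3 marks mainly promoters, H3K27me3 marks chromatin held by Polycomb, and CTCF is a DNA-binding protein of domain boundaries.

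All positions are in mm39. Shh (ENSMUSG00000002633) lies on chr5:28661813-28672254 on the minus strand, Ptch1 (ENSMUSG00000021466) on chr13:63656142-63721412 on the minus strand, and Hhip (ENSMUSG00000064325) on chr8:80692480-80784658 on the minus strand. Smo (ENSMUSG00000001761) lies on chr6:29735407-29762532 and Sufu (ENSMUSG00000025231) on chr19:46385324-46477243, both on the plus strand. Gli1 (ENSMUSG00000025407) lies on chr10:127165751-127177865 and Gli2 (ENSMUSG00000048402) on chr1:118761858-118982598, both on the minus strand, and Gli3 (ENSMUSG00000021318) lies on chr13:15637809-15904611 on the plus strand.

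The sequences below carry the chromatin results. Each is written 5′ to 3′ from the GRCm39 genome. The first 2 are promoters, shown on the strand of the gene as the 250 bases before the start of the canonical transcript, because that of Ptch1 alone among the 8 promoters holds the GLI site and that of Shh has the lowest CpG content for its C and G. Capitals mark the 9-letter GLI site GACCACCCA or its other strand TGGGTGGTC, and sequences without capitals hold neither.
Ptch1, chr13:63714093-63714342, minus strand: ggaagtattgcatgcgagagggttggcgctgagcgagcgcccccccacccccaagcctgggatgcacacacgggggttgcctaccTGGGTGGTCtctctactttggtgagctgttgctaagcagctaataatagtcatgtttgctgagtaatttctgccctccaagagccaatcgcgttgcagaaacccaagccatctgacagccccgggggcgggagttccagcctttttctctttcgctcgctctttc
Shh, chr5:28672255-28672504, minus strand: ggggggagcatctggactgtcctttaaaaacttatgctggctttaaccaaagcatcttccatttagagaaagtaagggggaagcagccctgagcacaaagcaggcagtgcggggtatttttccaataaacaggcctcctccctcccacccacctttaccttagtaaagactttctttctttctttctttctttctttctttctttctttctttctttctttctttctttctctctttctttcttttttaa

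The next 5 are distal windows on the plus strand, each 300 bases around the summit of an H3K27ac region. The first 3 lie in introns of Gli3 and had the highest mean fold enrichments among the regions of that gene called in every E11.5 list and in no E17.5 list of both genotypes. The fourth lies between genes beyond the Gli3 gene body and the fifth in an intron of Ptch1, and both were called in every list of both stages and genotypes.
Gli3 +21779, chr13:15659438-15659737: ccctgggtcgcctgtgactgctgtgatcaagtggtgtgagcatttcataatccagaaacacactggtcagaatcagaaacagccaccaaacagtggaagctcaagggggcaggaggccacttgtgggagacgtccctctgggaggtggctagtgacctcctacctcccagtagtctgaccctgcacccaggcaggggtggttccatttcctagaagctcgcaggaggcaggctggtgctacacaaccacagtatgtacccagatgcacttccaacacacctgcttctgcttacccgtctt
Gli3 +23611, chr13:15661270-15661569: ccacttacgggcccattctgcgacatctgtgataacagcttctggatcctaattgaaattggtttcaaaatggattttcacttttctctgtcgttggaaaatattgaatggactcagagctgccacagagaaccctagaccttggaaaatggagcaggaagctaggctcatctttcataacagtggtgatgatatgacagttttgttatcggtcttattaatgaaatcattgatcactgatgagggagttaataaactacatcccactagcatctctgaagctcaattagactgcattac
Gli3 +154550, chr13:15792209-15792508: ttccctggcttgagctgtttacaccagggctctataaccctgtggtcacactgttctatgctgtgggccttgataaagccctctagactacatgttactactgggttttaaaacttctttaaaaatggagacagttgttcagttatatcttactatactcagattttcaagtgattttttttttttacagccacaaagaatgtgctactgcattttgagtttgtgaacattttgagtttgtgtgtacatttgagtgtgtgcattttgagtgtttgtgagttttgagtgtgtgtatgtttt
Gli3 +296260, chr13:15933919-15934218: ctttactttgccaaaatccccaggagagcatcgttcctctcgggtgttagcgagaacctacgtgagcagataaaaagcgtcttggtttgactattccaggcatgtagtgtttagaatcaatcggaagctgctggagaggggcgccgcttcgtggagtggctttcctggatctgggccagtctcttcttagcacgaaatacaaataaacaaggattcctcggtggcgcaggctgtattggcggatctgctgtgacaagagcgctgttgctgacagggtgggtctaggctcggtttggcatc
Ptch1 +11930, chr13:63702012-63702311: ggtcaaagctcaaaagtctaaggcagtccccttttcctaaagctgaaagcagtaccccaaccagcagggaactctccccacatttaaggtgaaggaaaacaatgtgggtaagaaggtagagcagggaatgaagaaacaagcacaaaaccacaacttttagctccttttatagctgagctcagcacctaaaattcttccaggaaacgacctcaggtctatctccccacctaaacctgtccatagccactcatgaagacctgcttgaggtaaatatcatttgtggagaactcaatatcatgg

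In the Ptch1 promoter the site begins 165 bases before the start. A match in the window from 250 bases before to 50 after the start was found in 44 of 21757 protein-coding promoters (0.202%), searching both strands, and in none of the other 7 members. Within 2 kb of the start the share was 3.34% of all promoters, and Ptch1 was again the single member with one. None of the 300-base windows at the 100 distal H3K27ac regions near the members held the site, against 175 of 63778 such windows in the genome (0.274%). A match is a description of these letters and not of binding. The members' promoters differed in base composition, Shh having 43% GC and a CpG frequency of 0.0734 relative to that expected from its C and G (the CpG ratio), Ptch1 57.3% and 0.455, and Gli3 75% and 0.827. The median over all promoters was 54.3% and 0.517. In a window of 2 kb on each side of the start, all 8 had stretches of CpG island composition (200 bases or longer, GC from 50%, CpG ratio from 0.6), from 955 bases for Hhip to 2999 for Ptch1, as had 72.9% of all promoters.

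The libraries held between 16414369 and 24272569 counts on genes, written by the authors as reads per gene, and levels are given as CPM, counts scaled to a common library size with TMM factors. The 8 diencephalon markers did not move together between the stages of the wild type, where 2 rose, 3 fell and 3 did not pass, with sums of 1490 to 2069 CPM early and 1449 to 1784 late. Tcf7l2, a transcription factor of the thalamic region, had 877 to 1329 CPM in wild type samples early and 1019 to 1359 late and did not pass. Otx2 (mean 299.9 CPM early, 35.6 late), Barhl2 (102 and 13.1) and Olig3 (72.8 and 0.912) fell, and Lhx9 (109.98 and 226) and Six3 (31.9 and 79.8) rose. Among telencephalon markers, Emx2 (47.1 and 11.7 CPM) and Emx1 (1.20 and 0.0908) fell, and Tbr1 (0.393 and 30.03) and Neurod6 (0.0639 and 12.7) rose. The part of these shifts in the stage results was not tested. Sums of 5 midbrain and hindbrain markers stayed at or under 16.1 CPM and those of 4 pituitary markers at or under 5.32 in all samples. Of those lists, up to 2 midbrain and hindbrain markers and 1 to 3 pituitary markers were at 0 counts in all samples of a group. The wild type E17.5 replicate 1 library stood apart. Its log2 deviations from the group mean changed by 0.945 per 10 percentage points of transcript GC content, against -0.359 to 0.336 in the other 15. Results that rest on it are also given without it.

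**Figure D1:**
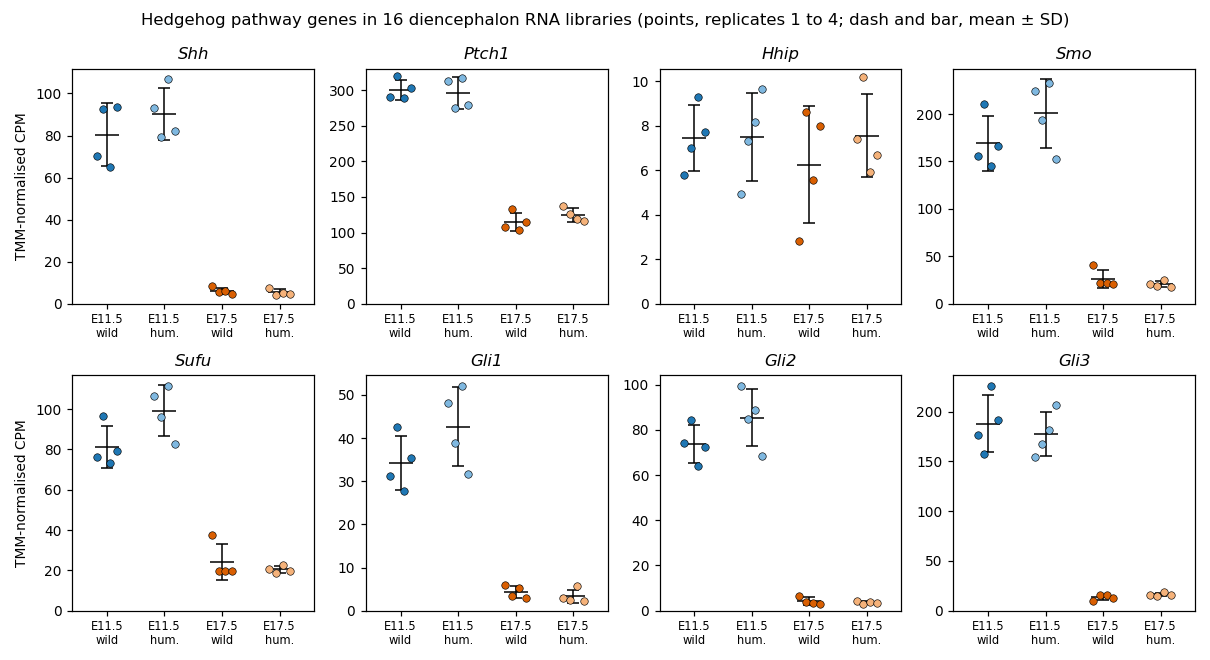
TMM-normalised CPM (y axes from 0) of the 8 genes in the 16 RNA libraries, by stage and genotype. Points are replicates 1 to 4 and the dash and bar give mean ± SD. In both genotypes the E11.5 and E17.5 points do not overlap for any gene but Hhip, whose groups overlap.

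Between E11.5 and E17.5, RNA of 7 of the 8 genes fell in wild type diencephalon (edgeR quasi-likelihood test, Benjamini-Hochberg adjusted p under 0.05 over 18583 genes). Over all genes tested, 26.7% fell and 29% rose. The falls ranged from 2.64-fold for Ptch1 to 17.2-fold for Gli2, and the 8 log2 fold changes had a median of -2.84, against -0.01 over all genes. Hhip did not pass the test. In the humanized samples, which the wild type fit did not use, the same 7 genes fell, where 39.5% of 18781 genes fell and 38.2% rose, and Hhip again did not pass. In bulk tissue, fewer cells of a type and less RNA per cell cannot be told apart.

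Shh, the ligand, was at 70.2, 92.8, 65.1 and 93.4 CPM in wild type replicates 1 to 4 at E11.5, then 8.36, 5.38, 6.07 and 4.85 at E17.5. In humanized samples it was at 93.0, 79.3, 107 and 82.2 CPM and then at 7.58, 4.37, 5.28 and 4.84. The stages did not overlap in either genotype. The log2 fold change was -3.71 (SE 0.24, adjusted p 9.60e-07) in the wild type and -4.04 (SE 0.18, adjusted p 3.23e-09) in the humanized samples. The highest E17.5 value in each genotype came from replicate 1.

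Ptch1, the receptor that binds the ligand and whose gene is itself a target of the pathway, was at 290, 319, 289 and 303 CPM at E11.5, then 108, 133, 104 and 114 at E17.5 in the wild type. In humanized samples it was at 313, 275, 317 and 279 CPM at E11.5, then 137, 127, 118 and 116 at E17.5. It had the smallest fall of the genes that passed, with a log2 fold change of -1.40 (SE 0.16, adjusted p 3.07e-05) in the wild type and -1.26 (SE 0.11, adjusted p 4.43e-07) in the humanized samples. Per kilobase of transcript, Ptch1 had the highest level of the 8 genes in every sample at E17.5.

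Hhip, a membrane protein that binds and sequesters the ligand, had the lowest level per kilobase in every E11.5 sample. It was at 5.79, 7.002, 9.31 and 7.70 CPM in the wild type. Later, at E17.5, it was at 2.82, 8.59, 5.57 and 7.97 CPM. The stages overlapped, and the log2 fold change was -0.27 (SE 0.33, adjusted p 0.509). The lowest of these values was that of the wild type E17.5 replicate 1 library. Without that library the log2 fold change was -0.04 (SE 0.20, adjusted p 0.88). Humanized samples had 4.92, 7.31, 8.17 and 9.63 CPM at E11.5, then 7.42, 10.2, 5.90 and 6.69 at E17.5 (log2 fold change -0.01, SE 0.24, adjusted p 0.977). Hhip has the transcript lowest in GC of the 8, at 41.2%, against 50.4% to 59.2% for the others. With offsets for GC content, an alternative chosen after the data were seen, Hhip also fell, by 0.86 on the log2 scale in the wild type (SE 0.20, adjusted p 0.00234) and by 1.17 in the humanized samples (SE 0.17, adjusted p 2.68e-05).

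Smo, the membrane protein that passes the signal on, was at 155, 211, 145 and 167 CPM in the wild type at E11.5, then 40.7, 21.5, 22.3 and 20.4 at E17.5. In the humanized samples it was at 224, 194, 233 and 153 CPM and then at 21.0, 18.8, 25.1 and 17.6. It fell in both, with log2 fold changes of -2.70 (SE 0.26, adjusted p 1.17e-05) and -3.29 (SE 0.16, adjusted p 5.02e-09). The wild type E17.5 replicate 1 value was the highest of its group, and without that library the fall was -3.00 (SE 0.16, adjusted p 5.75e-09).

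Sufu, the cytoplasmic protein that binds and restrains Gli factors, was at 76.3, 96.6, 73.2 and 79.4 CPM in the wild type at E11.5. At E17.5 it was at 37.6, 19.5, 19.9 and 19.9 CPM, again with replicate 1 above the others. Humanized samples had 106, 96.3, 111 and 82.9 CPM at E11.5, then 20.9, 18.6, 22.5 and 19.8 at E17.5. The stages did not overlap, and Sufu fell by 1.76 on the log2 scale in the wild type (SE 0.25, adjusted p 1.54e-04) and by 2.29 in the humanized samples (SE 0.12, adjusted p 8.75e-09). Without the wild type E17.5 replicate 1 library the log2 fold change was -2.07 (SE 0.14, adjusted p 4.11e-08).

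Gli1, the activator whose gene is a standard readout of the pathway, was at 31.3, 42.5, 27.8 and 35.3 CPM in the wild type at E11.5, then 5.91, 3.32, 5.27 and 2.87 at E17.5. Its log2 fold change was -2.99 (SE 0.27, adjusted p 7.33e-06). Humanized samples had 48.1, 38.8, 52.0 and 31.7 CPM and then 2.83, 2.55, 5.62 and 2.36 (log2 fold change -3.68, SE 0.26, adjusted p 1.06e-07). At E17.5 these levels came from 37 to 113 counts per sample.

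Gli2, the main activator of the family, had the largest fall of the 8 in both genotypes. It was at 74.3, 84.3, 63.9 and 72.3 CPM in the wild type at E11.5, then 6.64, 3.97, 3.53 and 3.08 at E17.5, a log2 fold change of -4.11 (SE 0.27, adjusted p 1.06e-06). In humanized samples it went from 99.2, 85.0, 88.8 and 68.5 CPM to 4.21, 2.79, 3.77 and 3.38 (log2 fold change -4.60, SE 0.16, adjusted p 6.59e-10).

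Gli3, the main repressor of the family, was at 177, 158, 226 and 191 CPM in the wild type at E11.5, then 9.67, 15.4, 15.6 and 13.2 at E17.5. Its log2 fold change was -3.82 (SE 0.23, adjusted p 6.89e-07). In humanized samples it was at 155, 168, 182 and 207 CPM and then at 16.1, 15.0, 18.5 and 15.8 (log2 fold change -3.46, SE 0.14, adjusted p 1.23e-09). The wild type E17.5 replicate 1 library had the lowest Gli3 value and the highest Gli2 value of its group.

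Levels of different genes can be compared per kilobase of the canonical transcript. In wild type samples at E11.5 the order in CPM per kb was Smo (41.8 ± 7.14, SD, n = 4), Ptch1 (36.3 ± 1.70), Shh (28.2 ± 5.22), Gli3 (21.0 ± 3.21), Sufu (17.95 ± 2.31), Gli2 (11.1 ± 1.26), Gli1 (8.39 ± 1.55) and Hhip (0.819 ± 0.161). Of the neighbors in that order, Ptch1 and Shh, Sufu and Gli2, and Gli1 and Hhip were separated by more than the sum of their SDs, and the others were not. At E17.5 the order was Ptch1 (13.9 ± 1.55), Smo (6.47 ± 2.38), Sufu (5.34 ± 1.97), Shh (2.17 ± 0.544), Gli3 (1.51 ± 0.309), Gli1 (1.06 ± 0.362), Hhip (0.686 ± 0.288) and Gli2 (0.648 ± 0.241). Here Ptch1 and Smo, and Sufu and Shh, were separated by more than that sum, and the other neighbors were not. Gli1 was below Gli2 in all 8 samples at E11.5 and above it in all 8 at E17.5. The log2 ratio of Gli1 to Gli2 per kb was -0.41 ± 0.13 and 0.72 ± 0.38 in the wild type and -0.31 ± 0.17 and 0.54 ± 0.53 in the humanized samples at E11.5 and E17.5. The log2 ratio of Ptch1 to Smo was -0.19 ± 0.17 at E11.5, against 1.16 ± 0.54 at E17.5 in the wild type, and -0.45 ± 0.20 and 1.58 ± 0.25 in the humanized samples.

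Other genes of the pathway were read from lists fixed with earlier results of these data known. Of 12 genes for ligand release and co-receptors, 10 were tested and 9 of them fell in the wild type (median log2 fold change -1.56). The largest falls were those of Boc (-3.35, SE 0.17), a co-receptor that presents the ligand, Lrp2 (-2.40, SE 0.28), an endocytic receptor, Gas1 (-2.28, SE 0.26), a surface co-receptor, and Scube2 (-2.18, SE 0.25), which releases the ligand from cells. Disp1, the ligand's exporter, did not pass (-0.65, SE 0.27, adjusted p 0.0569), and the other ligand genes Ihh and Dhh were too low to be tested. In the humanized samples all 10 tested fell, with a median of -1.98.

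The list of cilium and cytoplasmic regulators had no common direction. Of its 12 genes, 4 fell, 2 rose and 6 did not pass in the wild type, with a median log2 fold change of 0.16. In the humanized samples 5 fell, 6 rose and 1 did not pass, with a median of 0.08. Evc (-2.34, SE 0.19) and Evc2 (-2.07, SE 0.28), which hold Smo at the base of the cilium, and Kif7 (-2.07, SE 0.20), a kinesin at its tip, fell. Dzip1 (1.88, SE 0.22), a protein of the ciliary base, rose.

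Among 12 genes known to respond to hedgehog in ventral neural tube or progenitors, 7 fell, 1 rose and 4 did not pass in the wild type, with a median of -0.97. The largest changes were in Nkx6-2 (-3.87, SE 0.43) and Nkx6-1 (-3.09, SE 0.34), homeobox genes of ventral progenitors, Ccnd1 (-3.29, SE 0.33), which drives the cell cycle, and Foxa2 (-3.21, SE 0.26), a floor plate factor. The hypothalamic gene Nkx2-1 (0.42, SE 0.37, adjusted p 0.355) and Olig2 (-0.35, SE 0.30, adjusted p 0.343) did not pass. In the humanized samples 9 fell and 2 rose.

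Cell type markers moved with the stage. The summed level of 6 neural progenitor markers was 4139 to 4605 CPM in wild type samples at E11.5, against 525 to 800 at E17.5, and 6 of 6 fell with a median log2 fold change of -2.82. The summed level of 6 neuron markers went from 1585 to 2006 CPM at E11.5 to 5330 to 5974 at E17.5, and 5 of 6 rose. All 5 astrocyte markers rose, with sums of 54.4 to 59.3 and 332 to 437 CPM, and of 5 meningeal and mesenchymal markers 4 fell, with sums of 1038 to 1427 and 294 to 454 CPM. All 4 oligodendrocyte lineage markers rose, with sums of 61.01 to 71.8 and 151 to 209.97 CPM. Of 4 microglia and 4 endothelium markers 1 each rose and the others did not pass, with sums of 31.4 to 44.1 and 31.3 to 68.1 CPM for microglia and 235 to 295 and 187 to 351 for endothelium. None of the markers in these 7 lists was at 0. The part of these shifts in the falls of the hedgehog genes was not tested.

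In the humanized mouse experiment of the study the comparison is that of genotype, which for RNA asks whether the human hs754 sequence changes expression. None of the 8 genes passed the test between humanized and wild type samples. At E11.5, edgeR called 0 of 17816 genes (0%), with 1058 at an unadjusted p under 0.05 and 2 calls by DESeq2, neither of them a member. At E17.5 it called 0 of 18763 (0%), with 207 at an unadjusted p under 0.05 and 1 call by DESeq2. The paper, which also used DESeq2, reported 2 genes at E11.5 and none at E17.5. The largest member difference at E11.5 was that of Gli1 (log2 fold change 0.29, SE 0.17, adjusted p 0.577), and Sufu had the lowest unadjusted p (0.26, SE 0.12, adjusted p 0.577). At E17.5 the log2 fold changes lay between -0.38 (Gli1, SE 0.35, adjusted p 0.808) and 0.28 (Gli3, SE 0.20, adjusted p 0.808). Shh differed by 0.14 (SE 0.14) at E11.5, against by -0.17 (SE 0.25) at E17.5. Without the wild type E17.5 replicate 1 library, the E17.5 differences of Shh, Gli2 and Sufu were 0.02, 0.0041 and 0.05, and those of Smo, Gli1, Hhip and Gli3 were -0.06, -0.19, 0.03 and 0.15.

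The interaction of genotype and stage was called for 0 of 20234 genes (0%) by edgeR and for 0 by DESeq2, with 1610 genes at an unadjusted p under 0.05 by edgeR. The members' interaction terms ranged from -0.69 for Gli1 (SE 0.39, adjusted p 0.462) to 0.36 for Gli3 (SE 0.23, adjusted p 0.464). Hence the falls with stage were not shown to differ between genotypes for any of the 8 genes.

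**Figure D2:**
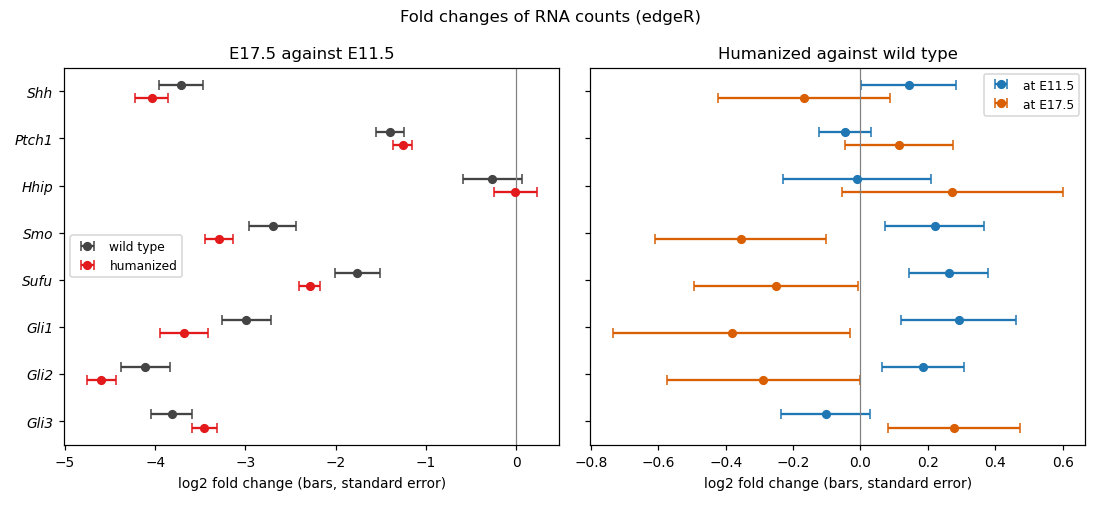
Log2 fold changes (x axes) of RNA counts by edgeR, with bars for the standard error, for the 8 genes. At left, E17.5 against E11.5 lies below 0 for 7 genes in both genotypes and near 0 for Hhip, and at right, humanized against wild type lies within 0.4 of 0 at both stages.

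Deviations from the group means show how the members varied among samples of one group. Over the 16 samples, Smo correlated with Sufu (Pearson's r = 0.963), Gli2 (0.883) and Gli1 (0.815), and against Hhip (-0.759) and Gli3 (-0.664). These are descriptions over 16 libraries that share their group means and whose GC trends differ. Some pairs differed between the stages. Ptch1 and Smo had r = 0.862 over the 8 samples of E11.5 and -0.277 over the 8 of E17.5, against 0.0854 over all 16. Smo, Sufu, Gli2 and Gli1 have transcripts of 55.8% to 59.2% GC, and Gli3 and Hhip have the lowest at 50.4% and 41.2%. Among 12564 protein-coding genes compared, those most like Shh were Scly (r = 0.928), Cdca5 (0.902), Foxf2 (0.902), Poc1a (0.894) and Plcb3 (0.893), and those most like Gli1 were Mrpl17 (0.972), Pdlim4 (0.961), Eno3 (0.940), Npepl1 (0.929) and Pmm2 (0.924). The part of the GC trends in these correlations was not tested.

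**Figure D3:**
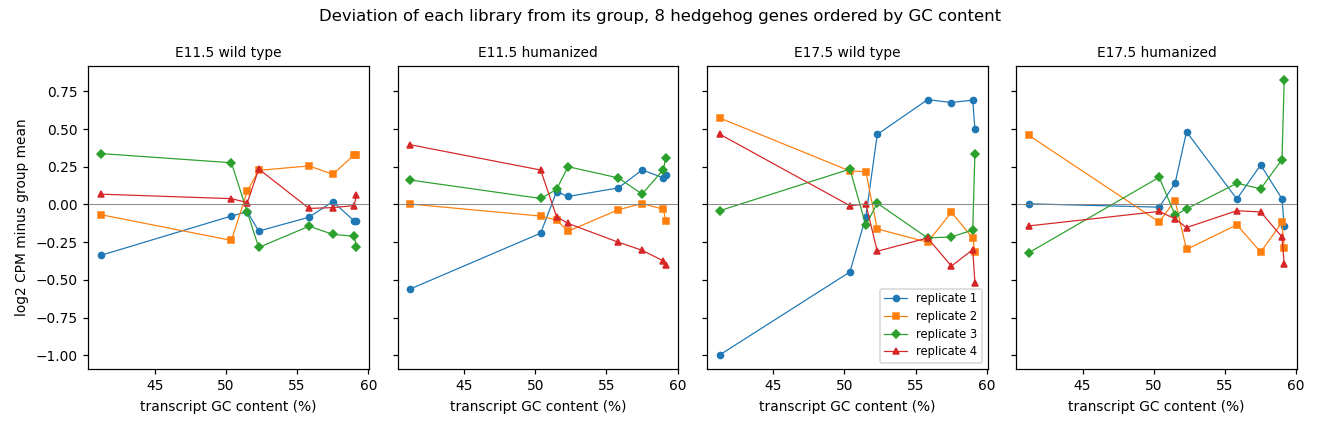
Log2 CPM minus the group mean (y axis) of the 8 genes, ordered by the GC content of the transcript (x axis, %), for each replicate of the 4 RNA groups. Replicate 1 of the wild type at E17.5 goes from -0.998 for Hhip to 0.695 for Sufu, 0.676 for Gli2, 0.692 for Smo and 0.498 for Gli1, and the other libraries spread less.

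At the promoters, the highest fold enrichment of a peak within 2 kb of the start was compared between stages in wild type lists. A peak counted where any part of it reached the window, so its summit could lie outside. The study's methods state that the H3K27ac antibody lot also bound acetylated lysine of histone H2B, and the labels name the same antibody for both stages. The list medians were subtracted on the log2 scale and limma was run over all promoters with a peak in each of the 5 lists. The H3K27ac enrichment of 4 of the 7 tested members was lower at E17.5 and that of none was higher, while of 10252 promoters tested 15.1% were lower and 9.16% higher. For Gli3 it went from 25.4 and 28.9 in the E11.5 lists to between 5.58 and 11.8 in the E17.5 lists (log2 difference -2.71, SE 0.31, adjusted p 3.96e-05). For Gli1 it went from 14.4 and 17.999 to between 4.63 and 7.71 (-2.58, SE 0.29, adjusted p 3.47e-05), for Gli2 from 15.6 and 17.1 to between 5.36 and 9.80 (-2.20, SE 0.29, adjusted p 7.62e-05), and for Smo from 26.6 and 28.1 to between 14.1 and 22.9 (-1.76, SE 0.27, adjusted p 2.68e-04). The stages did not overlap for any of these 4. The Gli1 summits lay 241 and 230 bp into the gene at E11.5. At E17.5 they lay 2340, 253 and 2387 bp into it in replicates 1 to 3, so the Gli1 values come partly from different places. The Gli2 summits lay 678 and 186 bp after the start at E11.5. At E17.5 they lay at 1529, 171 and -219 bp in replicates 1 to 3, so the Gli2 values also come partly from different places. In the humanized lists 5 members were lower, the same 4 and Ptch1 (-1.52, SE 0.38, adjusted p 0.0116), beside 1298 lower and 1029 higher of 10164 promoters.

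The other 3 tested promoters did not pass in the wild type. Shh had a fold enrichment of 8.99 and 9.20 at E11.5, against 11.8 to 17.6 at E17.5 (log2 difference after centring -0.49, SE 0.28, adjusted p 0.217). The E11.5 values belong to peaks of 4654 and 10120 bp with summits 2367 and 8819 bp into the gene, and the E17.5 values to summits 257 to 311 bp from the start, so they come from different places. Ptch1 had 20.3 and 41.3, then 38.4 to 46.9 (-0.56, SE 0.30, adjusted p 0.192), and its peaks covered the GLI site in all 5 lists. Its summits lay 379 to 495 bp after the start, except in E17.5 replicate 2, where the summit lay at 3014 bp, outside the window. The Ptch1 difference was -0.07 without E11.5 replicate 1 and -1.07 without replicate 2 (adjusted p 0.908 and 0.055). Sufu had 9.03 and 13.0, then 24.1 to 34.7 (0.22, SE 0.27, adjusted p 0.586). In all 5 lists these Sufu values belong to the upstream of 2 peaks, with summits at -1396 to -1327 bp from the start. They are not those of the peak nearest the start. In a window of 1 kb on each side the Sufu difference was -0.04 (adjusted p 0.957). The uncentred log2 enrichments of all promoters were higher by a median of 1.02 at E17.5, and without centring 7279 promoters were higher and 189 lower of 10252. On that scale Gli1, Gli2 and Gli3 were lower by smaller differences (-1.44, -1.07 and -1.58), Shh and Sufu were higher (0.64, adjusted p 0.0477, and 1.35, adjusted p 7.99e-04), Ptch1 changed sign without passing (0.58, adjusted p 0.104), and Smo no longer passed (-0.62, adjusted p 0.0595). Hhip had no H3K27ac peak in either E11.5 list and a weak one, of 3.51 and 3.69, in 2 of the 3 E17.5 lists.

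H3K4me3 was called at all 8 promoters in every list, as it was in every wild type list at 64.25% of all promoters at E11.5. Its enrichment was lower at E17.5 for 2 of 8, against 1.57% lower and 3.97% higher of 13795 promoters tested. Gli2 went from 43.4 and 48.4 to between 18.9 and 21.8 (log2 difference -1.38, SE 0.18, adjusted p 0.00975) and Gli1 from 26.7 and 28.0 to between 11.2 and 14.1 (-1.34, SE 0.16, adjusted p 0.00845). The stages did not overlap for either. The Gli1 summits lay 2311 and 2274 bp into the gene at E11.5, against 151 to 180 bp at E17.5. The wild type Gli1 values thus come from different places. In the humanized lists Gli1 passed (-1.53, SE 0.18, adjusted p 0.00664) and Gli2 did not (-0.97, SE 0.22, adjusted p 0.054). The humanized Gli1 summits lay 2326 to 2437 bp into the gene at both stages. Leaving out either wild type E11.5 list left 0 calls over all promoters, with Gli1 at adjusted p 0.0804 and 0.0768. Hhip went from 27.5 and 29.5 to between 43.4 and 49.4 (0.52, SE 0.16, adjusted p 0.121).

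H3K27me3 and CTCF are given as presence and level. H3K27me3 was in every wild type list at 20.8% of all promoters early and 22.24% late, and in no list at 75.24% and 69.11%. How its peaks were called is not given in the sources used here. Shh had H3K27me3 over 100% of its gene in every list of both stages and genotypes. The regions that reach its start were 14548 to 19402 bp long in the wild type, with midpoints 3684 to 5072 bp into the gene. Their summits are not known, and their fold enrichment is that of the domain. This enrichment was 14.02 and 15.8 at E11.5, against 9.07 to 11.3 at E17.5, beside H3K27ac and H3K4me3 peaks at the same stages. It was the highest of the 8 at E11.5 among regions within 2 kb of a start. Elsewhere in its gene, Gli1 had a higher value than Shh in wild type E11.5 replicate 1 (19.7), but not in replicate 2. The same was seen in humanized E11.5 replicates 1 and 2 (18.3 and 20.9). The Gli genes had H3K27me3 at the promoter in every list, with higher values at E17.5. Gli1 went from 4.68 and 6.55 to between 10.4 and 13.9, Gli3 from 4.50 and 5.79 to between 7.41 and 9.33, and Gli2 from 4.83 and 5.46 to between 6.12 and 8.07. The same direction was seen in the means of the humanized lists, at 5.98 and 10.7 for Gli1, 5.61 and 7.56 for Gli3 and 6.32 and 6.76 for Gli2. For Gli2 the humanized lists of the stages overlapped (5.96 and 6.68, then 6.27 to 7.40). Hhip was at 4.14 and 4.95, then at 5.31 to 6.23 in the wild type. In the humanized lists its stages overlapped (4.26 and 5.66, then 5.36 to 5.58).

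The Smo promoter had no H3K27me3 peak in the E11.5 lists and one in every E17.5 list, of 4.02 to 4.51 in the wild type and of 2.99 to 4.01 in the humanized samples. That pattern was seen at 3.32% of all promoters in the wild type, and for a single promoter Fisher's exact test cannot go below p = 0.1 with 2 lists against 3. Ptch1 and Sufu had no H3K27me3 peak within 2 kb of the canonical start in any list. Elsewhere in its gene, Ptch1 had H3K27me3 in every list of both genotypes, and Sufu had none. In the wild type it covered 5.72% to 7.15% of the Ptch1 gene at E11.5 and 2.95% to 5.49% at E17.5. The H3K27me3 lists held 13845 and 19159 peaks in the wild type at E11.5, against 27447 to 43694 at E17.5. CTCF at E17.5 lay within 2 kb of the start in all 3 wild type lists for Gli1 (30.6 to 55.1 fold), Sufu (15.4 to 35.4), Gli2 (13.1 to 24.3) and Ptch1 (4.92 to 6.96), as at 38.9% of all promoters, and in none for Smo, Gli3 and Hhip.

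**Figure D4:**
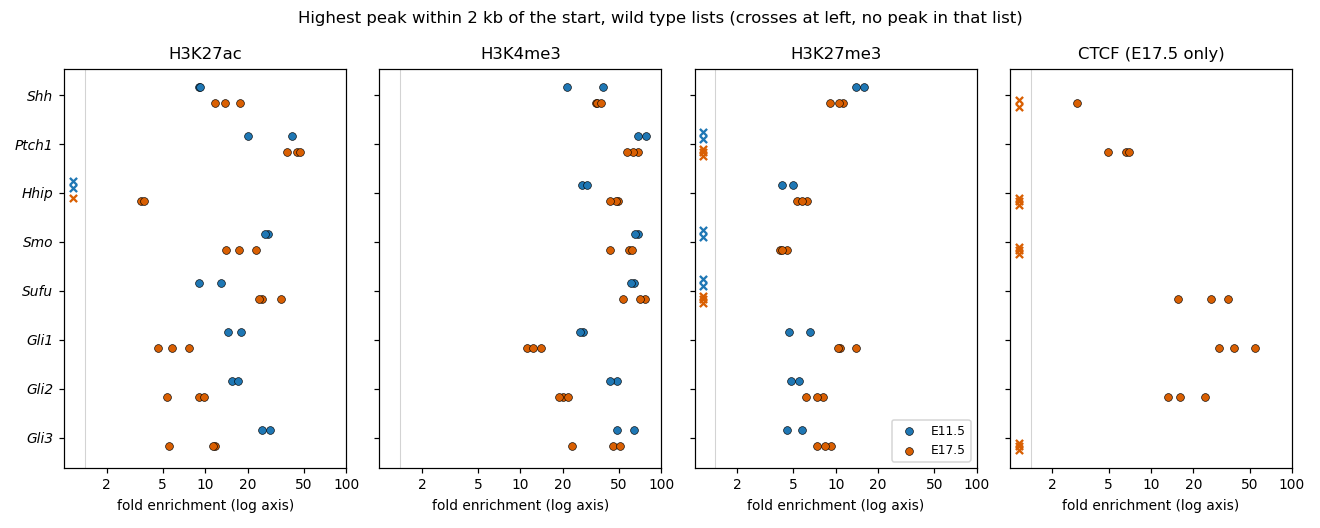
Fold enrichment (log axis) of the highest peak within 2 kb of the start of each gene in each wild type list, for 4 marks, with E11.5 in blue and E17.5 in orange and crosses for lists without a peak. Gli1, Gli2 and Gli3 have lower H3K27ac and higher H3K27me3 at E17.5, and Smo has H3K27me3 at E17.5 only.

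Outside promoters, 100 H3K27ac regions of the wild type lists lay over 2 kb from any annotated start and within 100 kb of a member's gene body. Of these, 14 were called in every list of both stages, 13 in every E11.5 list and no E17.5 list, and 16 in no E11.5 list and every E17.5 list. Over the 63778 distal regions of the genome the shares were 7.09%, 3.88% and 26.8%. The E11.5 lists were shorter, with 32415 and 36146 peaks against 62715 to 77412 at E17.5, and the members' count of E17.5-only regions moved with that. When each list was cut to an equal number of its strongest peaks, the members had 9, 19 and 1 of 66 regions of the 3 kinds, and the genome had 2744, 3880 and 5273 of 27995. The humanized lists gave 11, 17 and 2 of 97, and 4124, 3258 and 10080 of 54993 in the genome. Leaving out the wild type E11.5 replicate 1 list raised the 13 to 28 of 98, and the genome's count from 2474 to 5087 of 61233. Of the regions counted first, 11 of the 14, 10 of the 13 and 2 of the 16 had the same status in the humanized lists. The nearest protein-coding start was that of the member for 62 of the 100 regions.

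Gli3 held 8 of the 13 regions seen in E11.5 lists only, all of them in its gene body, and none of the 16 seen in E17.5 lists only. In 7 of the 8 the humanized lists had the same status. The window printed above at +21779 had fold enrichments of 5.70 and 6.57 in the E11.5 lists, that at +23611 had 6.08 and 5.33, and that at +154550 had 5.57 and 4.57. The second of these also had H3K4me3 in both E11.5 lists (3.89 and 5.21) and in no E17.5 list, and the same status in the humanized lists. An H3K27me3 region from 15658773 to 15663674 spans the first and second windows. In the wild type it was called in 1 of 2 E11.5 lists (2.50) and in 3 of 3 E17.5 lists (3.48 to 4.37). Every humanized list of either stage held this region, so its absence from an early list was not repeated there.

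A pair of Gli3 regions was called throughout. That at +80039 had 5.13 and 5.43 at E11.5, against 6.36 to 9.29 at E17.5. That at +296260, between Gli3 and Inhba, had 4.92 and 6.00 at E11.5, against 8.30 to 19.4 at E17.5, with H3K4me3 in every list (10.7 to 18.9). Its window has a GC content of 52% and a CpG ratio of 0.758, against medians of 48% and 0.207 over all distal H3K27ac windows, and it was one of 4 of the 100 with a 200-base stretch of CpG island composition, a share of 4% against 3.59% in the genome.

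Near Ptch1 the region at +11930, in an intron, was 7183 bp long and was called in every list, with 11.3 and 11.7 at E11.5, against 5.97 to 8.58 at E17.5. A region in an intron of Fancc, 78976 bp from the Ptch1 start, was seen in the E11.5 lists alone (6.91 and 6.53) in both genotypes. An exonic region of Ptch1 at +41119 was seen in the E17.5 lists alone (3.01 to 4.04) in both genotypes. Smo had a pair of E11.5-only regions at -33557 and -34609 bp from its start, in introns of Tspan33, whose own start is nearer, and a pair of E17.5-only regions at -12270 and +21341 bp that did not have that status in the humanized lists. Shh had 4 regions and Hhip 2 within 100 kb, and the single one called in every list of a stage was near Hhip, at E17.5 (2.36 to 4.14). The Shh window spanned 210 kb, against 776 kb between its neighboring genes. Its E11.5 peaks in the gene body reached within 2 kb of the start and were not counted as distal. Sufu had 25 regions, of which 7 were called throughout and 7 in E17.5 lists only, and 13 of the 25 had Trim8 as the nearest start.

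**Figure D5:**
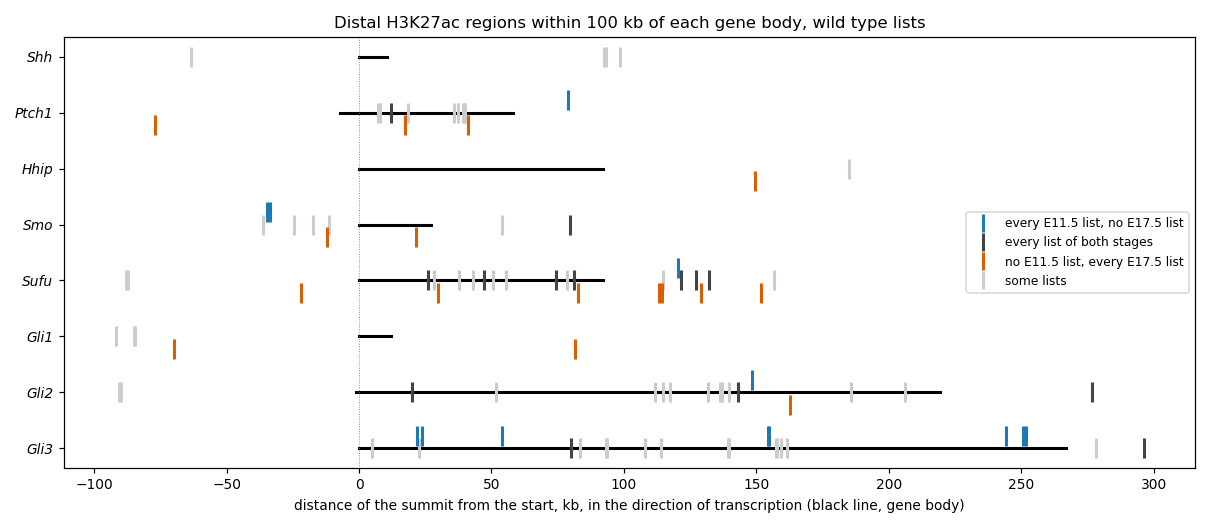
Distal H3K27ac regions (ticks) within 100 kb of each gene body in wild type lists, by the distance of the summit from the start. The distance is in kb along the direction of transcription. The black line is the gene body and the color gives the lists that hold the region. Gli3 has 8 ticks for E11.5 lists only, all within its gene body, and Shh has none called in every list of a stage.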

How the data were processed

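Polyadenylated RNA and chromatin of pooled diencephalon were measured in 16 RNA samples and 36 peak lists, and 24 input libraries were not analysed here. The authors deposited read counts per gene (GENCODE release 31 basic), written by STAR, with no normalization. The deposited peak lists hold the fold enrichment over input, a −log10 p and q, and a score for each peak, as MACS2 gave them per replicate. The submitters' processing notes name STAR 2.7.9a, Bowtie2 2.4.2, MACS2 2.2.7.1 and deepTools 3.5.1, with mm39. The main analysis used the unstranded counts. Rows that name no gene held 48.1% to 58.4% of each library and stayed out of totals. Unmapped reads made up most of this, at 36.3% to 44.9% of each library. The lists' read depth is unknown, so no interval is given for enrichments.

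Counts were filtered (filterByExpr), scaled by TMM and tested with edgeR 4.0.16 (quasi-likelihood, Benjamini-Hochberg, threshold 0.05) over all genes, with the groups compared in each fit. DESeq2 1.42.0 was an alternative. Promoter enrichments (2 kb on each side of the start) were tested with limma 3.58.1 on log2 values after subtraction of each list's median. Peaks were merged at 1 bp of overlap. The code was tested on simulated data. One marker gene is not reported here, nor are sums that hold it. Symbols, starts and sequences come from GENCODE M39 on GRCm39, where 98.8% of the identifiers matched. Replicates are litters, so p-values measure the spread between pools. The members, lists and alternatives were chosen with earlier results of these data known. Named genes are the 8 members, up to 4 genes per list with the largest change among those called in the wild type stage comparison, with uncalled genes named as such after their values were seen, and the 5 genes most like Shh and Gli1.

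Deviations of same-numbered samples of both genotypes had correlations of r = 0.619, 0.715, 0.112 and 0.332 at E17.5 for replicates 1 to 4. At E11.5 the correlations were 0.0786, 0.216, 0.0131 and 0.158. Same-numbered wild type samples of different stages, which come from different litters, had correlations from -0.681 to 0.533. Samples with different numbers were not compared, so whether the numbers pair samples was not tested. The main fits did not take them as pairs, and the replicate block was an alternative.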

Additional observations from a re-analysis of the deposited data

Results flagged for a closer look

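In the wild type E17.5 group, replicate 1 lay far from the other 3 libraries for Smo, at 40.7 CPM against 20.4 to 22.3, with a gap of 0.868 of the range of the group on the log2 scale. The same library was at 37.6 CPM for Sufu against 19.5 to 19.9, a gap of 0.97. These are 2 of 32 groups of 4 samples examined, and chance gives about 1 in 20. The library is the one whose deviations changed most with the GC content of the transcript (0.945 per 10 percentage points), and the part of that trend in these values was not tested.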

How the results depend on the processing

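All alternatives left 7 members called lower with stage in both genotypes, and the GC-content offsets, chosen after seeing the data, called 8. None called a member by genotype or in the interaction. Of the alternative values of summary counts, 129 kept within their limits and 9 did not. The 2 H3K4me3 promoters became 1 in the humanized lists and 0 to 2 when a list was left out. With an equal number of peaks, the 14 regions of both stages became 9 and the 16 E17.5-only regions 1. The 16 became 7 at a −log10 q of at least 5 and 2 in the humanized lists (an alternative added after seeing the data), and the 13 E11.5-only regions became 13 to 28 when a list was left out. The cause was not tested.

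With the replicate block, 7 members were called in each stage comparison and none by genotype, so the block changed no call of a member. It turned Hhip in the humanized stage comparison from -0.01 to 0.0075, as did DESeq2 (0.0367), DESeq2 size factors (0.0751), the strand column (0.0312), all 16 samples in 1 fit (0.0062) and leaving out a sample (-0.1869 to 0.1301). By genotype at E11.5, Hhip turned to 0.0117 with all 16 samples and 0.2418 with GC-content offsets, and leaving out a sample gave -0.1635 to 0.1509 for Hhip and -0.1921 to 0.0007 for Gli3. At E17.5, GC-content offsets gave 0.0254 for Shh, 0.0264 for Gli2 and 0.048 for Sufu, and leaving out a sample gave -0.3558 to 0.0196, -0.409 to 0.0041 and -0.3237 to 0.0463. The Hhip interaction became -0.2015 with GC-content offsets. Without centring, H3K27ac gave 0.6413 for Shh and 0.5791 for Ptch1, and H3K4me3 gave 0.0798 for Sufu. Sufu H3K27ac was -0.0354 within 1 kb and -0.0458 to 0.4522 with a list left out, and its H3K4me3 was 0.0089 in the humanized lists and -0.1931 to 0.0217 with a list left out. Shh H3K4me3 was -0.3163 to 0.531 with a list left out. None of the genotype or interaction values passed the threshold.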
